A study of Mus musculus with 12 samples.

Results

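The genes described are 9 receptor tyrosine kinases outside the FGF receptor family, MET, EGFR, ERBB2, ERBB3, PDGFRA, EPHA2, IGF1R, INSR and AXL, and HGF, the ligand of MET. They were chosen by symbol as candidates for sustaining growth when FGFR4 is blocked, and the rule that lists them uses no expression value, although earlier results of these data were known when it was written. All 10 were found among the 36292 gene symbols of the expression table, and all 10 passed the filter on low counts that left 15836 genes for testing.

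The tumors were subcutaneous xenografts of Hep3B, an established line of human hepatocellular carcinoma, in female BALB/c nu/nu mice of about 8 weeks. Dosing began when tumors averaged about 500 mm3 and was by oral gavage once daily. Tumors were removed 8 h after dose 4. The 4 groups of 3 mice received vehicle alone, 300 mg/kg of H3B-6527, 10 mg/kg of Lenvatinib, or both agents at these doses. H3B-6527 is an inhibitor selective for FGFR4, and lenvatinib is a multikinase inhibitor of VEGF receptors, FGF receptors, PDGFRA, KIT and RET. All tumors came from 1 cell line in hosts that lack mature T cells, and no group was left without gavage.

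Receptor tyrosine kinases are membrane proteins that bind a ligand outside the cell, pair up and phosphorylate each other, which recruits adaptors that switch on the RAS-MAPK and PI3K-AKT pathways. Hepatocytes use several of them: MET and EGFR drive division during liver regeneration, INSR governs glucose and lipid metabolism, and IGF1R carries growth signals of the insulin-like growth factors. Because these receptors feed the same pathways as FGFR4, their activity can replace a blocked receptor, which is known as bypass signalling. RNA levels, measured here, do not report receptor phosphorylation.

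Library totals ran from 23.8 to 40.9 M counts, and the smallest was replicate 3 of H3B-6527. Replicate tumors differed most within the H3B-6527 group, where the biological coefficient of variation was 21.5%, and by 8.16 to 11.2% within the other groups. Hepatocyte genes such as ALB and AFP were counted in every tumor, which fits the labelled cell line. Levels are given in CPM, counts per M (mega) of the scaled library total. They allow a gene to be followed across tumors but not compared with another gene, since no transcript lengths were used. A floor of 3 counts corresponds to 0.0762 to 0.126 CPM. The summed hepatocyte list of 12 genes rose with H3B-6527, from 88534 to 97309 CPM in the vehicle tumors to 139388 to 199215 CPM. Not every gene on it rose. ALB, AFP, APOA1, TTR, TF, HNF4A, KLB and GPC3 did, and FGFR4 fell by 0.28 (log2, edgeR adjusted p = 0.0353). APOB, SERPINA1 and FGF19 did not pass, at log2 fold changes of 0.03, 0.24 and −0.89. The part of this rise in the results below was not tested.

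H3B-6527 split the genes into 3 sets. HGF, EPHA2, PDGFRA and IGF1R fell against vehicle, EGFR, ERBB2 and INSR rose, and MET, ERBB3 and AXL did not pass the test. The 3 vehicle tumors and 3 H3B-6527 tumors did not overlap for any of the 7, as for 56.0% of all genes tested. The 7 calls are 70.0% of the 10 genes, where 49.4% of all genes tested were called (25.2% higher and 24.3% lower, edgeR quasi-likelihood test, adjusted p under 0.05). With a background this wide, a call alone does not set these genes apart, and the sizes are what the following paragraphs describe. Their median log2 fold change was −0.33, against 0.01 for all genes tested, and the single values ran from −3.48 for HGF to 0.79 for ERBB2.

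**Figure D1:**
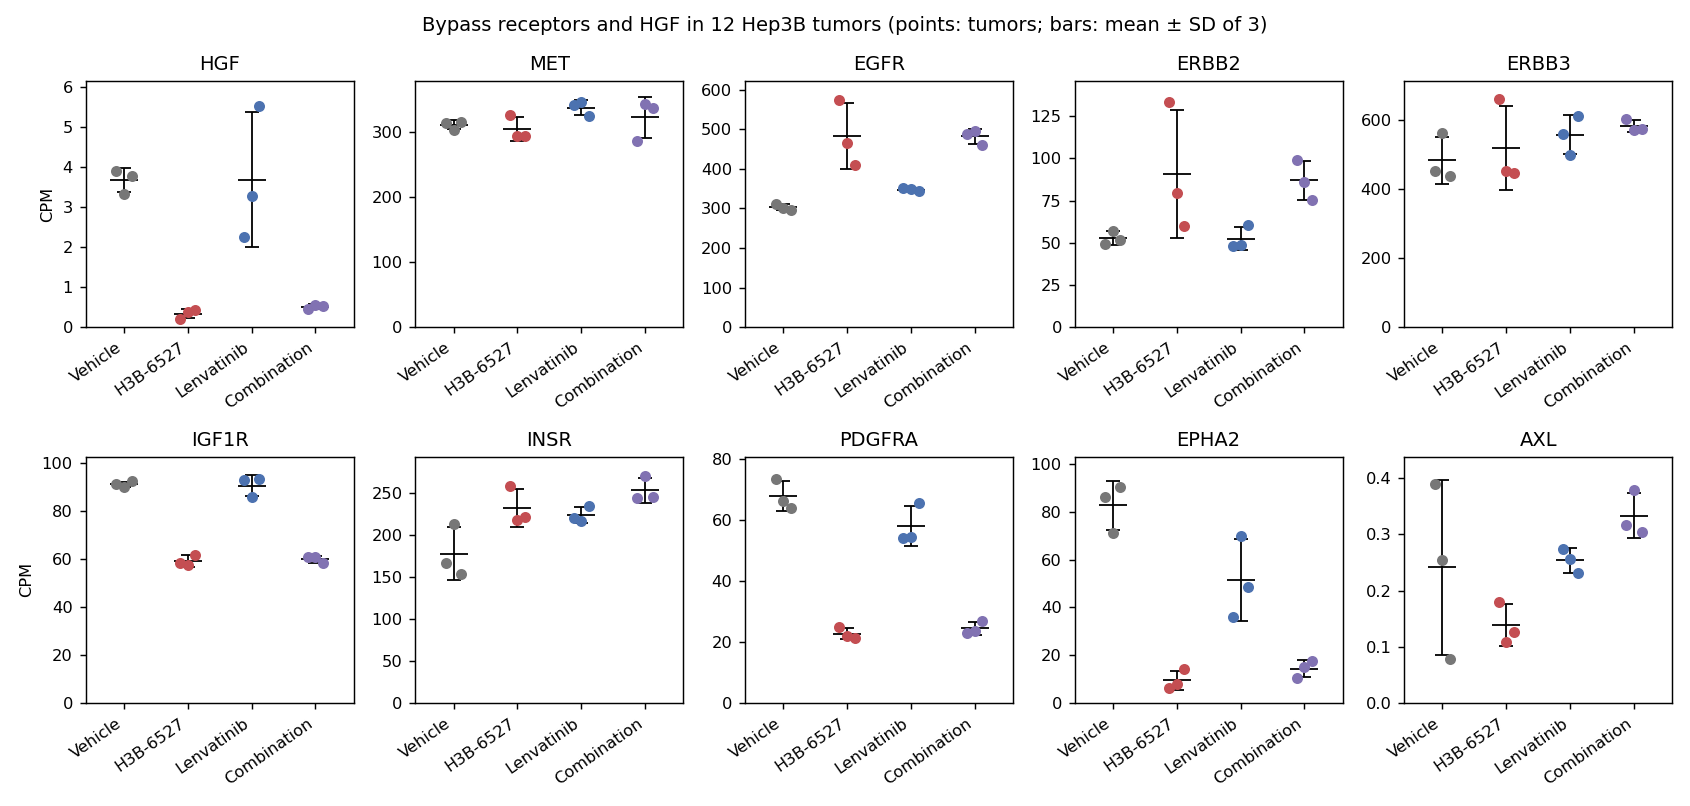
Level of each gene in CPM (linear axes from 0, scaled per gene) in the 12 tumors, with points for tumors and bars for the mean ± SD of 3. HGF, PDGFRA, EPHA2 and IGF1R are low in both groups that received H3B-6527, EGFR is high in both, and MET sits between 287 and 347 CPM in all 12 tumors.

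HGF binds MET and is secreted as an inactive precursor that serum and membrane proteases cut into the active form. Its level was 3.91, 3.34 and 3.78 CPM in the 3 vehicle tumors and 0.206, 0.379 and 0.419 CPM in the H3B-6527 tumors. With lenvatinib it was 2.25, 3.27 and 5.54 CPM, and with the combination 0.443, 0.552 and 0.533 CPM. Every tumor that received H3B-6527 was therefore below every tumor that did not, while lenvatinib alone spread the values to both sides of vehicle. HGF fell by 3.48 ± 0.36 (log2, SE) with H3B-6527 against vehicle (edgeR adjusted p = 8.32e-06). As summed counts, 415 in the vehicle tumors stood against 32, which is 12.5-fold lower per library total (95% exact interval 8.70 to 18.5, counting error only). In bulk tumors, fewer cells of a type and less RNA per cell cannot be told apart, and the handling of reads from the mouse host is not given.

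Lenvatinib did not move HGF past the test in either setting. Against vehicle the log2 fold change was 0.01 ± 0.28 (edgeR adjusted p = 0.996), with 400 counts against 415. The interval of −0.59 to 0.60 leaves room for changes of that size. From lowest to highest the order of the means was H3B-6527, combination, vehicle and lenvatinib. All 3 combination tumors were above all 3 tumors with H3B-6527 alone, at 51 counts against 32, where groups did not overlap for 13.1% of all genes tested. The difference of 0.64 ± 0.42 did not pass (edgeR adjusted p = 0.66).

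MET, the receptor for HGF, was the least variable of the 10 genes. It stood at 314, 303 and 316 CPM with vehicle, 326, 294 and 294 CPM with H3B-6527, 341, 347 and 324 CPM with lenvatinib and 287, 343 and 338 CPM with the combination. The lenvatinib tumors were all above the vehicle tumors, in a comparison where the groups did not overlap for 22.8% of all genes tested. The other groups overlapped with vehicle. The fitted log2 fold change with H3B-6527 was −0.03 ± 0.09 (edgeR adjusted p = 0.796), and its interval of −0.22 to 0.16 bounds the change in either direction. With the combination it was 0.05 ± 0.09 against vehicle (edgeR adjusted p = 0.645). In the tumors where RNA of the ligand was many times lower, RNA of the receptor did not change past the test.

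Of the 12 genes listed for HGF activation and its inhibitors, 10 were tested, and with H3B-6527 5 rose and 2 fell, where 49.4% of all genes tested were called (25.2% higher and 24.3% lower), with a median of 0.49 against 0.01 for all genes. The protease genes that rose included HGFAC, whose product is the HGF activator of serum, from 28.4 ± 2.22 to 52.4 ± 10.4 CPM (SD, n = 3, log2 fold change 0.89 ± 0.15). F12, coagulation factor XII, rose from 26.7 ± 5.06 to 110 ± 29.9 CPM, and KLKB1, plasma kallikrein, rose by 1.49 ± 0.28. These 3 genes encode liver-secreted serum proteases. SPINT1, a membrane inhibitor of HGF activator and matriptase, fell by 0.85 ± 0.10, and ST14, which encodes matriptase, fell by 0.49. SERPINA5, the protein C inhibitor, which also inhibits HGF activator, rose by 1.22 ± 0.12. The related inhibitor SPINT2 went from 4 counts in the vehicle tumors to 43, a ratio of 11.2 per library total (95% exact interval 4.06 to 42.9, counting error only). Activating proteases and inhibitors were therefore found on both sides.

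EGFR, ERBB2 and ERBB3 form 1 family and signal as pairs: EGFR binds several ligands, ERBB2 has none of its own, and ERBB3 binds neuregulins but has little kinase activity. EGFR was 312, 301 and 297 CPM with vehicle, 573, 465 and 411 CPM with H3B-6527, 351, 349 and 343 CPM with lenvatinib, and 489, 495 and 461 CPM with the combination. The groups with H3B-6527 lay above both groups without it, with no overlap. EGFR rose by 0.67 ± 0.11 with H3B-6527 (edgeR adjusted p = 2.12e-04) and by 0.67 ± 0.11 with the combination against vehicle (edgeR adjusted p = 2.18e-04). The rise with H3B-6527 was 0.53 without replicate 1 of that group, its highest tumor, and 0.77 without its replicate 3. Between combination and H3B-6527 the difference was −0.00 ± 0.10, with an interval of −0.23 to 0.22. Lenvatinib alone gave 0.20 ± 0.11 (edgeR adjusted p = 0.543), although its 3 tumors were all above vehicle, where groups did not overlap for 22.8% of all genes tested. Counts of the overlapping antisense gene EGFR-AS1 were 0.495 to 1.11% of those of EGFR, and since use of strand in the counting is not given in the sources used here, reads of the pair cannot be told apart.

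ERBB2 was higher with H3B-6527, but unevenly. The vehicle tumors had 49.2, 57.2 and 51.4 CPM and the H3B-6527 tumors 133, 79.6 and 59.8 CPM. The lenvatinib tumors had 48.3, 48.4 and 60.5 CPM and the combination tumors 99.0, 86.1 and 75.5 CPM. Replicate 1 of H3B-6527 was far above the other two, and the lowest tumor of that group was close to the highest vehicle tumor. The log2 fold change was 0.79 ± 0.23 (edgeR adjusted p = 0.0141), with 0.41 (edgeR adjusted p = 0.0369) without that replicate and 1.02 without H3B-6527 replicate 3. With the combination it was 0.72 ± 0.23 against vehicle (edgeR adjusted p = 0.0212). Both calls of ERBB2 were lost when no low-count filter was applied (edgeR adjusted p = 0.061 and 0.0833), and that of the combination also when libraries were scaled by their totals (0.58, edgeR adjusted p = 0.0552) and without vehicle replicate 1 or 3 or combination replicate 1 (edgeR adjusted p = 0.0556 to 0.0719).

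ERBB3 had the same outlying tumor without a shift of its group. It was 451, 562 and 436 CPM with vehicle and 659, 451 and 447 CPM with H3B-6527, where replicate 1 was again the highest and the groups overlapped. The log2 fold change was 0.10 ± 0.15 (edgeR adjusted p = 0.593), with an interval of −0.22 to 0.43. Lenvatinib tumors had 560, 499 and 613 CPM. Combination tumors had 601, 571 and 574 CPM, all above vehicle, as for the 64.6% of all genes whose groups did not overlap in that comparison, and the difference of 0.27 ± 0.15 did not pass (edgeR adjusted p = 0.152).

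The ERBB ligands moved in both directions. AREG, amphiregulin, an EGFR ligand, went from 15.1 ± 3.23 CPM with vehicle to 1.44 ± 0.73 CPM with H3B-6527 (SD, n = 3) and fell by 3.45 ± 0.42 (edgeR adjusted p = 5.08e-05). EREG, epiregulin, which binds EGFR and ERBB4, fell by 2.51 ± 0.27 (edgeR adjusted p = 1.33e-05), and NRG1, a neuregulin, fell by 1.83 ± 0.44. NRG3, a ligand of ERBB4, rose from 5.03 ± 0.09 to 13.3 ± 1.83 CPM (SD, n = 3), and BTC, betacellulin, rose by 1.23 ± 0.32. HBEGF had a log2 fold change of −0.54 ± 0.33 that did not pass. ERBB4, the receptor of this family not among the 10, fell by 1.19 ± 0.31. ERRFI1, which encodes an inhibitor that binds the EGFR kinase domain, fell by 0.98 ± 0.18 (edgeR adjusted p = 7.73e-04). In the same tumors, then, RNA of EGFR and BTC was higher, RNA of AREG, EREG and ERRFI1 was lower, and HBEGF did not pass.

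IGF1R and INSR are close relatives that share ligands and the IRS adaptors, and here they moved apart. IGF1R was 91.1, 90.2 and 92.3 CPM with vehicle, 58.3, 57.3 and 61.8 CPM with H3B-6527, 92.7, 85.7 and 93.4 CPM with lenvatinib, and 60.9, 60.6 and 58.2 CPM with the combination. The values fell into 2 narrow bands, the lower one holding all 6 tumors that received H3B-6527. IGF1R fell by 0.62 ± 0.07 with H3B-6527 (edgeR adjusted p = 1.19e-05) and by 0.61 ± 0.07 with the combination against vehicle (edgeR adjusted p = 1.53e-05). The change is smaller than those of HGF or EPHA2, and its SE is the smallest of the 10 genes. Lenvatinib alone gave −0.01 ± 0.07, with an interval of −0.15 to 0.13.

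INSR was 167, 213 and 154 CPM with vehicle, 259, 218 and 222 CPM with H3B-6527, 220.4, 217 and 234 CPM with lenvatinib, and 245, 271 and 246 CPM with the combination. All 9 treated tumors were above the 3 vehicle tumors, and vehicle replicate 2 came close to them. Against vehicle, groups did not overlap for 56.0% of all genes tested with H3B-6527, 22.8% with lenvatinib and 64.6% with the combination. INSR rose by 0.39 ± 0.12 with H3B-6527 (edgeR adjusted p = 0.0139) and by 0.51 ± 0.12 with the combination (edgeR adjusted p = 0.00266), while lenvatinib gave 0.33 ± 0.12 (edgeR adjusted p = 0.309). The first call was lost without vehicle replicate 1 or 3 (edgeR adjusted p = 0.0598 and 0.0718), when libraries were scaled by their totals (0.27, edgeR adjusted p = 0.078) and when the 2 groups were fitted alone (edgeR adjusted p = 0.0595).

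Around these receptors, IGF2, the fetal growth factor that binds both, rose from 598 ± 63.5 to 910 ± 38.0 CPM with H3B-6527 (SD, n = 3, log2 fold change 0.61 ± 0.10). IGF1 was low, at 0.318 CPM with vehicle, and did not pass. The 2 main adaptors changed in opposite directions. IRS1 was 64.4, 71.6 and 65.1 CPM with vehicle and 291, 238 and 198 CPM with H3B-6527, a rise of 1.85 ± 0.14 (edgeR adjusted p = 1.30e-06). IRS2 was 199, 256 and 192 CPM with vehicle and 52.3, 39.8 and 50.4 CPM with H3B-6527, and fell by 2.18 ± 0.28 (edgeR adjusted p = 7.75e-05).

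PDGFRA, a receptor of the platelet-derived growth factors that is best known from mesenchymal cells and is a lenvatinib target, was 73.6, 66.4 and 64.0 CPM with vehicle and 25.0, 21.9 and 21.4 CPM with H3B-6527. It was 54.2, 54.4 and 65.5 CPM with lenvatinib and 22.8, 23.6 and 26.9 CPM with the combination. The groups with and without H3B-6527 were far apart. The call had the smallest adjusted p of the 10 genes, with a fall of 1.58 ± 0.11 (edgeR adjusted p = 6.82e-07). Among the genes of these growth factors, not all of which bind PDGFRA, PDGFA fell by 1.47 ± 0.17 and PDGFD by 1.28 ± 0.19. PDGFB and PDGFC were tested too, and their values are not given here. The related receptor PDGFRB fell by 0.69 ± 0.12.

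The summed fibroblast list was lower with H3B-6527, as HGF and PDGFRA were, but few of its genes carried the sum. The summed level of the 12 listed genes was 318 to 403 CPM with vehicle, 153 to 215 CPM with H3B-6527, 313 to 367 CPM with lenvatinib and 157 to 212 CPM with the combination. Most of that sum was FBLN1, at 319 CPM with vehicle, and of the 5 genes tested, FBLN1, COL1A2, COL3A1 and PDGFRB fell with H3B-6527. COL1A1 had a log2 fold change of −0.38 and did not pass (edgeR adjusted p = 0.332). Of the 12 genes, 9 were under 1 CPM. Over all 12 tumors the collagen genes COL1A2, COL3A1 and COL1A1 had 1550, 367 and 334 counts, and DCN, LUM and POSTN had 11, 18 and 4. The hosts were mice, while the genes counted carry human symbols, and the handling of mouse reads is not given. The fibroblast, pericyte, endothelial and macrophage lists therefore cannot be read as amounts of host cells. The part of fibroblasts in the levels of HGF and PDGFRA was not tested. The pericyte and smooth muscle list, which holds 8 genes, had 27.4 to 31.2 CPM with vehicle and 18.5 to 21.2 CPM with H3B-6527. In it NOTCH3 fell by 1.31 and MYH11 by 0.81 (log2). CSPG4, TAGLN and RGS5 did not pass, at −0.11, 0.82 and 0.53. ACTA2, CNN1 and DES had 31, 14 and 28 counts over all 12 tumors. Of the endothelial list, all 9 genes in the table were under 1 CPM, and ERG had no count. The macrophage list rose with H3B-6527, from 84.7 to 117 CPM with vehicle to 133 to 202 CPM, nearly all of it CD68, with 8 of 10 genes under 1 CPM and C1QA without a count.

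EPHA2, a receptor for ephrin-A ligands on neighbouring cells, is a gene often raised by MAPK signalling in epithelial tumors. It was 86.5, 71.3 and 90.6 CPM with vehicle and 6.22, 7.72 and 14.1 CPM with H3B-6527. Lenvatinib tumors had 36.1, 69.9 and 48.4 CPM and combination tumors 10.4, 15.1 and 17.5 CPM. The 4 groups thus took an order, H3B-6527, combination, lenvatinib and vehicle from lowest to highest, in which only the lowest pair overlapped. EPHA2 fell by 3.17 ± 0.32 with H3B-6527 (edgeR adjusted p = 1.50e-05) and by 2.53 ± 0.31 with the combination against vehicle (edgeR adjusted p = 5.49e-05). Lenvatinib alone gave −0.69 ± 0.29, which did not pass (edgeR adjusted p = 0.419). Its tumors were all below vehicle, in a comparison where the groups did not overlap for 22.8% of all genes tested. The ligand gene EFNA1, ephrin-A1, moved the other way, from 26.5, 44.9 and 29.1 CPM with vehicle to 148, 119 and 75.0 CPM with H3B-6527, a rise of 1.77 ± 0.26 (edgeR adjusted p = 2.12e-04).

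AXL, a receptor for GAS6 often raised in mesenchymal and drug-resistant tumor cells, was close to the counting floor. The vehicle tumors had 14, 10 and 3 counts, the H3B-6527 tumors 7, 4 and 3, the lenvatinib tumors 10, 8 and 9, and the combination tumors 10, 11 and 12, or 101 counts in all. At this depth no comparison of AXL passed the test. Against vehicle, the log2 fold change with H3B-6527 was −0.76 ± 0.53 (edgeR adjusted p = 0.244), with an interval of −1.92 to 0.39. Without vehicle replicate 3 it was −1.18 (edgeR adjusted p = 0.0472), so the call turns on a tumor with 3 counts. Of its relatives, TYRO3 fell by 0.91 ± 0.10 and MERTK rose by 1.25 ± 0.20.

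**Figure D2:**
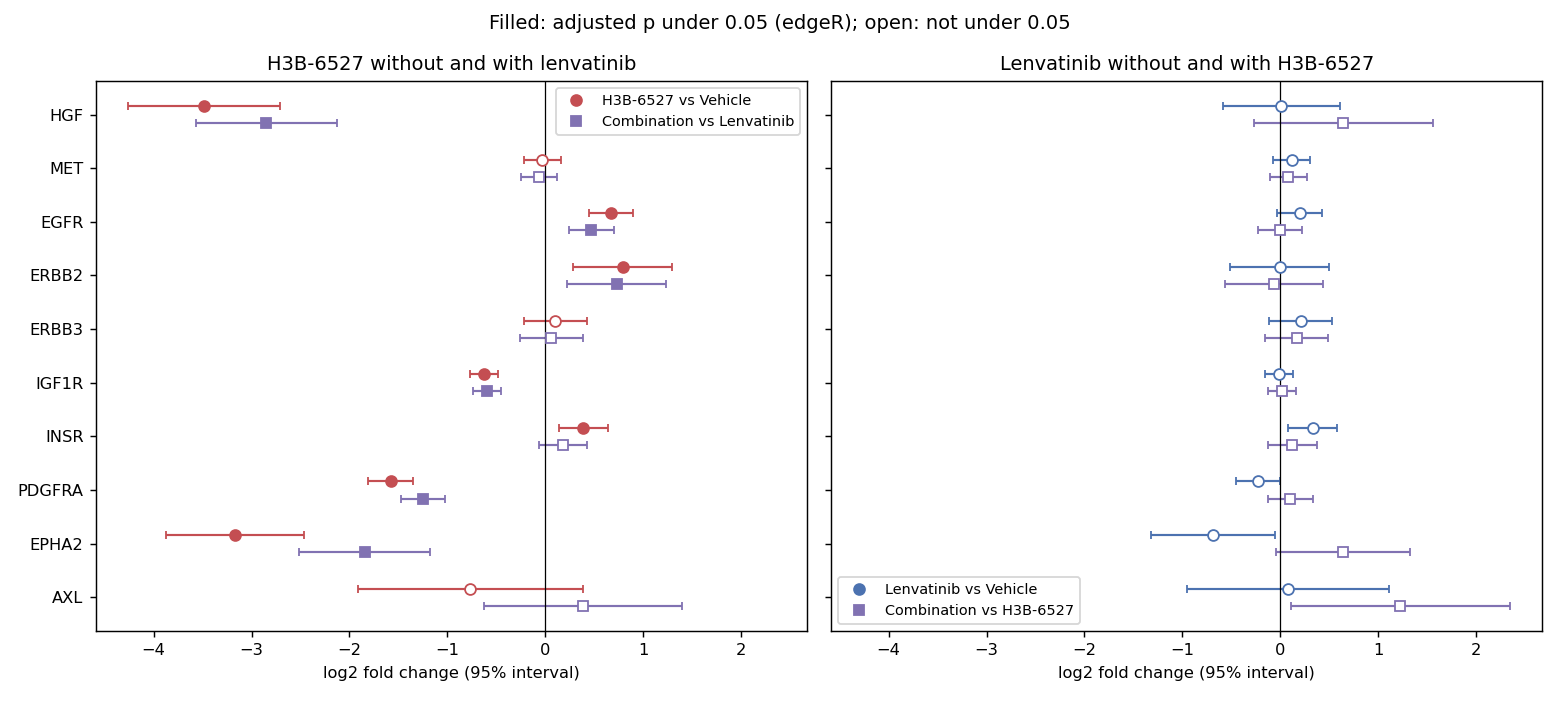
Log2 fold change with its 95% interval for H3B-6527 given without and with lenvatinib (left) and for lenvatinib given without and with H3B-6527 (right), filled where the adjusted p was under 0.05. HGF, EGFR, ERBB2, IGF1R, PDGFRA and EPHA2 are filled in both series of the left panel, and the right panel has no filled point.

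The same question was put a second time by comparing the combination with lenvatinib alone, which shares no tumor with H3B-6527 against vehicle. Of the 10 genes, 2 were higher and 4 lower, where 40.0% of all genes tested were called (19.1% higher and 20.9% lower). HGF fell by 2.85 ± 0.33 (edgeR adjusted p = 6.73e-05), a 7.89-fold lower summed count per library total (95% exact interval 5.88 to 10.8, counting error only). EPHA2 fell by 1.84 ± 0.31 (edgeR adjusted p = 7.90e-04), PDGFRA by 1.25 ± 0.10 and IGF1R by 0.60 ± 0.07. These are the 4 genes that also fell without lenvatinib. EGFR rose by 0.47 ± 0.11 (edgeR adjusted p = 0.00378) and ERBB2 by 0.73 ± 0.23 (edgeR adjusted p = 0.0264). The ERBB2 call was lost without the low-count filter (edgeR adjusted p = 0.0989) and without lenvatinib replicate 1 or 2 or combination replicate 1 or 2 (edgeR adjusted p = 0.0563 to 0.0877). INSR did not pass, at 0.18 ± 0.12 (edgeR adjusted p = 0.231), although its groups did not overlap, as for 57.0% of all genes.

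Against vehicle, the combination had 3 higher and 4 lower genes of the 10, where 50.1% of all genes tested were called (24.8% higher and 25.3% lower). They were EGFR, ERBB2 and INSR on one side and HGF, EPHA2, PDGFRA and IGF1R on the other. The comparison shares the vehicle tumors with that of H3B-6527, so its values stand beside the first and are no second measurement of the control. HGF fell by 2.84 ± 0.33, a 7.95-fold lower summed count per library total (95% exact interval 5.93 to 10.9), and PDGFRA by 1.48 ± 0.11.

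Lenvatinib alone called none of the 10 genes, and with edgeR 0.0% of all genes tested were called. At an unadjusted p under 0.05, 1698 genes (10.7%) passed, among them EPHA2, INSR and PDGFRA. DESeq2 called 128 genes higher and 115 lower, and limma voom 3 and 5, with none of the 10 in either. Vehicle and lenvatinib tumors did not overlap for MET, EGFR and INSR, which were higher, and EPHA2, which was lower, where 22.8% of all genes had groups that do not overlap. PDGFRA, itself a lenvatinib target, had a log2 fold change of −0.23 ± 0.10 (edgeR adjusted p = 0.447).

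Adding lenvatinib to H3B-6527 also called none of the 10 genes, and 0.0126% of all genes tested with edgeR. DESeq2 and limma voom called none of the 10 either. At an unadjusted p under 0.05, 1492 genes (9.42%) passed, with AXL the 1 member among them. AXL had 33 counts against 14, a ratio of 2.32 per library total (95% exact interval 1.21 to 4.70, counting error only). Its log2 fold change was 1.23 ± 0.52 (edgeR adjusted p = 0.471). EPHA2 stood at 0.64 ± 0.31 (edgeR adjusted p = 0.561, interval −0.05 to 1.33), with its 2 groups overlapping. Groups did not overlap for HGF and AXL, both higher, where 13.1% of all genes had groups that do not overlap.

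Averaged over both settings, the lenvatinib effect called none of the 10 genes, and 0.0884% of all genes tested, with 14.5% passing at an unadjusted p under 0.05. DESeq2 and limma voom called none of the 10 in this contrast. INSR came closest with edgeR, at 0.23 ± 0.08 (edgeR adjusted p = 0.226). A last contrast asked whether the 2 agents combined to more or less than the sum of their log2 effects. It called 0.0% of all genes with edgeR, 5.39% at an unadjusted p under 0.05, and 13 higher and 5 lower genes with DESeq2. EPHA2 had the largest departure of the 10, at 1.33 ± 0.43 with an interval of 0.39 to 2.26 (edgeR adjusted p = 0.768). Its log2 fold change with H3B-6527 was −3.17 in the absence of lenvatinib and −1.84 in its presence, and this difference did not pass the correction over all genes. For PDGFRA the departure was 0.33 ± 0.15 (edgeR adjusted p = 0.909), and for HGF 0.64 ± 0.51 (edgeR adjusted p = 0.938).

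**Figure D3:**
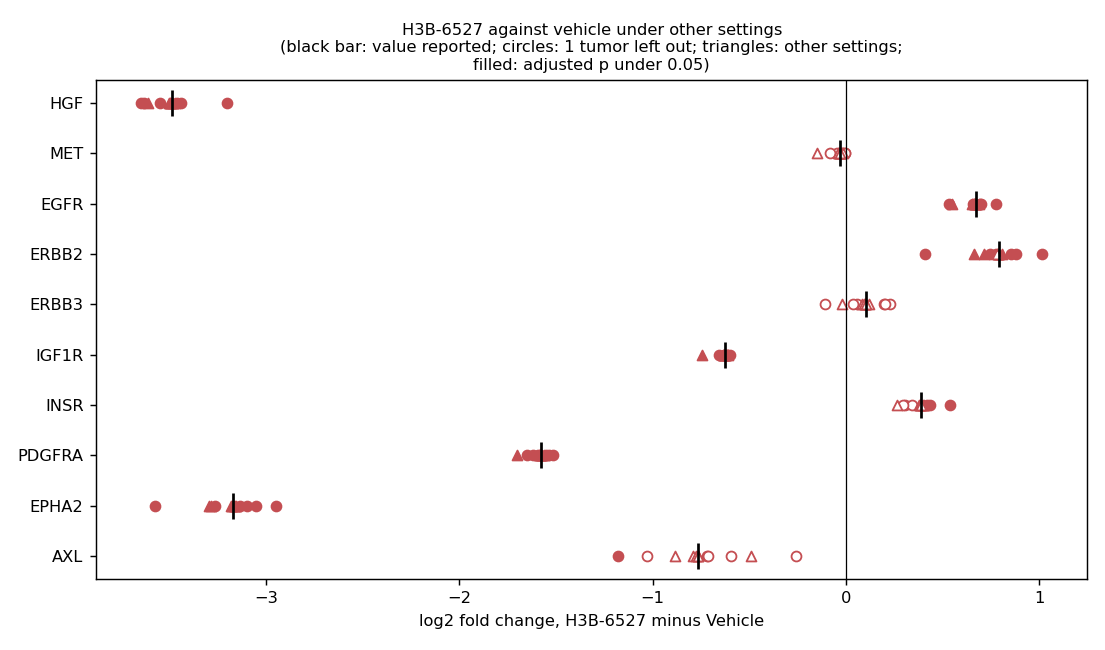
Log2 fold change of each gene with H3B-6527 against vehicle, as reported (black bar), with 1 tumor left out (circles) and under other settings (triangles), filled where the adjusted p was under 0.05. HGF, EPHA2, PDGFRA, IGF1R and EGFR stay filled throughout, INSR and ERBB2 have open points, and AXL is filled only without vehicle replicate 3.

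Across the 12 tumors, each gene was set against 12046 or, for HGF and AXL, 12047 others by Pearson's r of log2 CPM, as a description. The points share the split by H3B-6527, which called 49.4% of the genes tested. HGF was most like LFNG, PLXNA2 and ABCC1 (r = 0.99 for each, n = 12). PDGFRA was most like ADAMTS9, IVNS1ABP and LRRFIP1, EPHA2 most like MMD, BRD9 and GOT1, and IGF1R most like GRK5, BICC1 and ZSWIM5 (r of 0.98 to 0.99). Like the members they follow, these genes were low in the tumors that received H3B-6527: PLXNA2 fell by 3.12 and ADAMTS9 by 3.05 against vehicle. EGFR was most like ATRN, ECI2 and ADD3 (r = 0.99), and ERBB2 most like AGPAT2, ZNF572 and TNFRSF10C (r of 0.98 to 0.99).

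INSR differed from these in its company. Its nearest genes were NDRG1, TAB3 and TEP1 (r = 0.96 for each). NDRG1, a gene induced by hypoxia, had log2 fold changes of 2.58 with H3B-6527 and 2.12 with lenvatinib. TAB3 had 0.45 and 0.29, and TEP1 0.32 and 0.30. None of the 3 lenvatinib values passed, as edgeR called 0.0% of all genes tested there. The part of hypoxia was not tested. The genes that did not pass with H3B-6527 had weaker likeness. MET was nearest to AP3S1 (r = 0.86), ERBB3 to JARID2 (r = 0.90) and AXL to ZADH2 (r = 0.82). Among the 10 genes, HGF was close to IGF1R and PDGFRA (r = 0.97 for each) and EPHA2 (r = 0.96) and inverse to EGFR (r = −0.93), while MET and HGF, the receptor and its ligand, had r = 0.25.

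The remaining pathway genes were given as 5 lists, to be read against the 49.4% of all genes called with H3B-6527 (25.2% higher and 24.3% lower) and their median of 0.01. With H3B-6527 against vehicle, the 18 tested ligand genes of 26 held 6 higher and 6 lower, with a median of −0.28. MST1, the ligand of the MET relative MST1R, rose from 303 ± 17.7 to 762 ± 140 CPM (SD, n = 3, edgeR adjusted p = 5.96e-06), and since it has a near-identical copy in the genome its counts are uncertain. Of 20 tested adaptors and substrates, 7 were higher and 4 lower (median −0.06). Besides IRS1, the risers included GAB1, the docking protein of MET and EGFR, from 24.3 ± 1.54 to 48.0 ± 5.04 CPM, and PIK3R1, a regulatory subunit of PI3K, by 0.77 ± 0.08. Of 27 tested genes listed as receptor down-regulators, 5 were higher and 6 lower (median −0.02). The list is mixed, since ADAM10, ADAM17, USP8 and GRB7 on it are not plain inhibitors. All 3 CBL ubiquitin ligases, which send active receptors to degradation, fell: CBLC by 1.42 ± 0.14, CBL by 0.87 ± 0.15 and CBLB by 0.48 ± 0.09. They do not stand for the list, which also held the 5 higher genes. GRB10 on it was 84.9 ± 8.59 CPM with vehicle and 125 ± 8.18 CPM with H3B-6527 (SD, n = 3).

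Of 45 other receptor tyrosine kinases outside the FGF receptors, 23 were expressed enough to be tested, and with H3B-6527 9 were higher and 9 lower (median 0.31), against 25.2% and 24.3% of all genes. EPHA1, another ephrin-A receptor, rose by 1.41 ± 0.14, from 29.8, 27.8 and 25.3 CPM to 86.3, 73.1 and 60.2 CPM, in the tumors where EPHA2 was low. ROS1, a receptor known from fusion genes in cancer, went from 35 to 371 summed counts, a log2 rise of 3.52 ± 0.41, and the exact counting interval of the ratio was 7.78 to 16.1. ROR2, a WNT5A receptor, went from 199 counts to 3, and its ratio of 63.8 per library total has an exact interval of 21.5 to 312.

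In the combination against lenvatinib, where 40.0% of all genes were called (19.1% higher and 20.9% lower), the lists gave 6 higher and 6 lower of 18 ligands, 5 and 3 of 10 HGF activation genes and 6 and 5 of 20 adaptors. Of 27 down-regulators 3 were higher and 6 lower, and of 23 other receptors 8 and 9. AREG fell by 2.98 ± 0.44, EREG by 1.08 ± 0.25 and IRS2 by 1.40 ± 0.27, and IRS1 rose by 1.58 ± 0.14. No gene of any list passed with lenvatinib alone, where the smallest p among the ligands was that of EFNA1, at 1.02 ± 0.26 (edgeR adjusted p = 0.171).

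**Figure D4:**
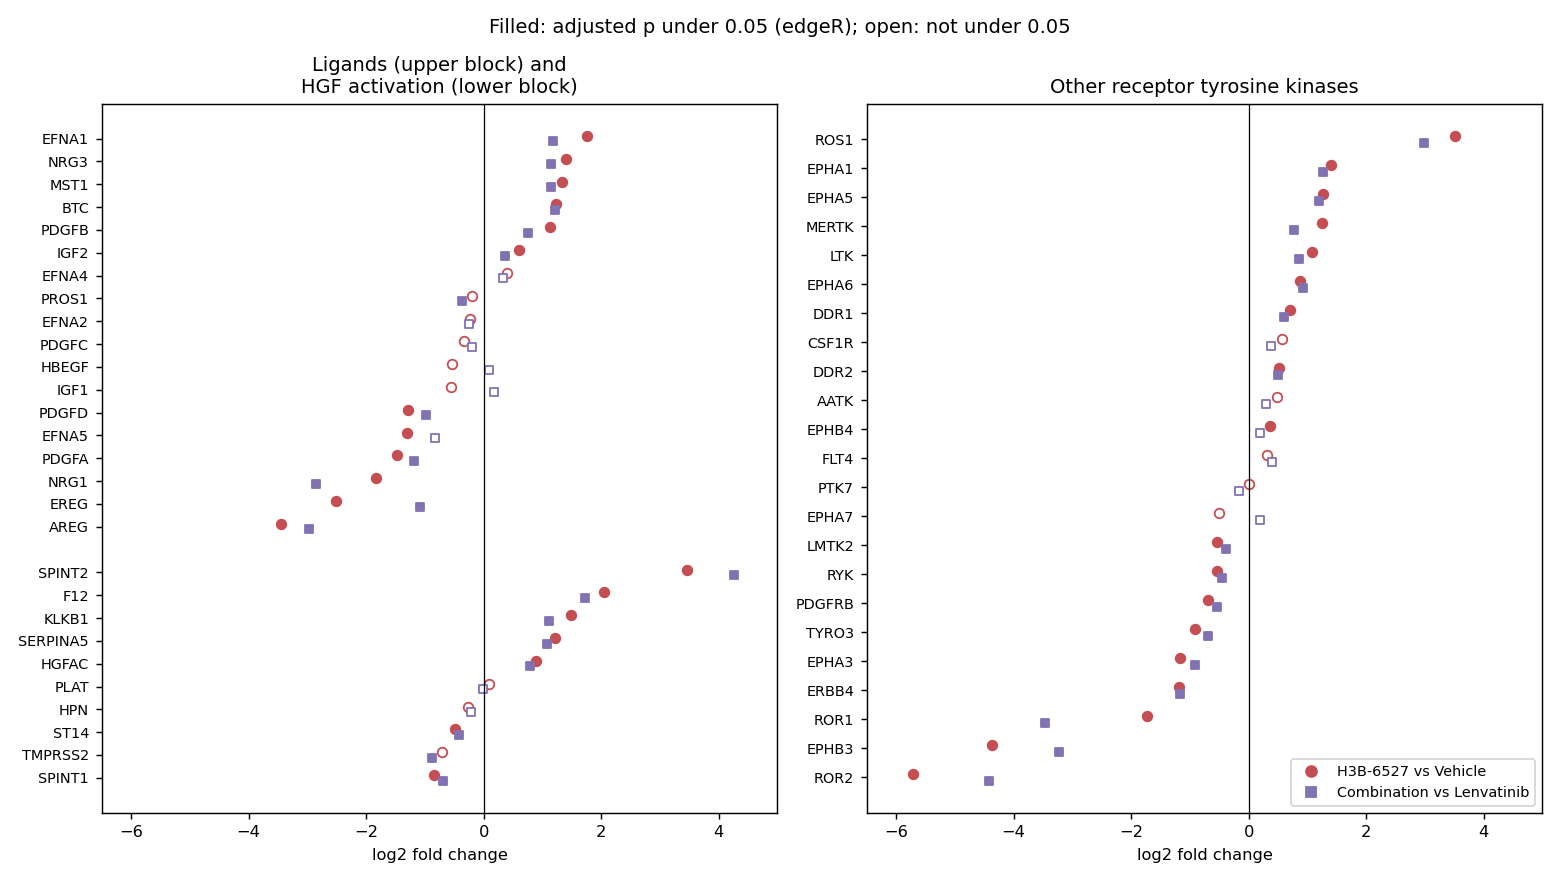
Log2 fold change of the tested ligands and HGF activation genes (left) and of the other receptor tyrosine kinases (right), with circles for H3B-6527 against vehicle and squares for the combination against lenvatinib, filled where the adjusted p was under 0.05. AREG, EREG and ROR2 lie to the left and EFNA1, MST1 and ROS1 to the right in both comparisons, and the fitted values of SPINT2, ROR1 and ROR2 rest on few counts in their lower group.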

How the data were processed

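RNA was measured in 12 tumors, 3 mice in each of 4 groups, and each library was run on 4 lanes. The deposited table holds the authors' expected counts, the estimated reads per gene symbol, of which 40.2% were fractional. STAR, kallisto, GRCh37 and GRCm38 are named in the submitters' processing notes, while versions, annotation, use of strand and the handling of mouse reads are not given in the sources used here. Values were rounded. Genes were filtered by filterByExpr and tested by the 2-sided quasi-likelihood F-test of edgeR 4.0.16 in R 4.3.3 (scaled by TMM, dispersion fitted robustly), with all 12 libraries in 1 fit and Benjamini-Hochberg adjustment over 15836 genes in each of 7 comparisons, at a threshold of 0.05. Intervals of fold changes are 95% intervals from that fit. Exact binomial intervals (scipy 1.17.1) pool the counts of 3 tumors and leave out differences between tumors. They belong to ratios of summed counts per library total.

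The 10 genes and the lists were chosen with earlier results of these data known. Of each list, up to 4 genes with the smallest adjusted p under 0.05 in a comparison are named, or up to 2 with the smallest p where none passed, and for likeness the 3 genes with the highest r on log2 CPM with a prior count of 2, among genes with a mean log2 CPM of at least 1. KLKB1, ST14, BTC, HBEGF, IGF1, PDGFD, PDGFRB and ERBB4 are named outside this rule, chosen after their values were seen. Alternatives were DESeq2 1.42.0, limma voom 3.58.1, other scaling, other low-count filters, fits of 2 groups alone and leaving out each tumor. Replicate numbers only name tumors, and the labels give no batch. Human coordinates and sequences were not used here.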

Additional observations from a re-analysis of the deposited data

How the results depend on the processing

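No paired analysis was possible because the labels number no replicates and tie no tumors across groups, and the numbers used here were given in accession order only to name the tumors. For the 20 called values of the 10 genes, 245 of 260 alternatives kept the call, 15 lost it, all for ERBB2 or INSR, and 0 reversed. The combination against lenvatinib had 1 higher gene of the 10 with no low-count filter and 1 to 2 with 1 tumor left out. ERBB3 passed in the combination against vehicle when the 2 groups were fitted alone (0.28, edgeR adjusted p = 0.0274), and the cause of these changes was not tested. The stricter filter, 1 CPM, leaves out AXL. Scaling by library totals moved the median of all genes by −0.12 with H3B-6527, −0.15 with the combination against vehicle and −0.10 with the combination against lenvatinib, and the splits of higher and lower calls from 3987 and 3842 to 3022 and 4960, from 3924 and 4006 to 2923 and 5339, and from 3020 and 3309 to 2293 and 4348. Counts over all genes in the lenvatinib comparisons depended on the tool and filter. Lenvatinib against vehicle had 128 higher and 115 lower genes with DESeq2, 3 and 5 with voom, 28 and 13 with no filter, 84 and 76 with 2 groups alone, and 0 to 13 and 0 to 0 with 1 tumor left out. The combination against H3B-6527 had 76 and 17 with DESeq2, and 13 higher with no filter, 4 with the stricter filter, 1 with 2 groups alone and 0 to 16 with 1 tumor left out. The averaged lenvatinib effect had 303 and 149 with DESeq2, 26 higher with voom, 68 and 11 with no filter, 35 higher with the stricter filter, 1 lower with library totals, and 0 to 237 and 0 to 145 with 1 tumor left out. Non-additivity had 13 and 5 with DESeq2. Uncalled values near 0 changed sign. With library totals these were ERBB3 at −0.0196 with H3B-6527 and −0.0415 in the combination against lenvatinib, HGF at −0.0287 with lenvatinib, MET at −0.0944 with the combination against vehicle, and IGF1R at −0.00816 in the combination against H3B-6527 and −0.0299 in the averaged effect. HGF with lenvatinib was −0.00101 with DESeq2 and −0.0753 with voom. In the combination against H3B-6527, EGFR was 0.00151 with DESeq2, 0.0147 with voom, 0.00163 with RLE factors and 0.00853 with 2 groups alone, and ERBB2 was 0.00260 with voom. With voom, EPHA2 was 0.00574 in the averaged effect and ERBB2 0.0119 in non-additivity. With 1 tumor left out, ERBB3 with H3B-6527 ran from −0.11 to 0.23. With lenvatinib, AXL ran from −0.34 to 0.59, ERBB2 from −0.12 to 0.0597, HGF from −0.42 to 0.27 and IGF1R from −0.0316 to 0.0297. In the combination against H3B-6527, EGFR ran from −0.10 to 0.14, ERBB2 from −0.29 to 0.31 and IGF1R from −0.00379 to 0.0586, and against lenvatinib ERBB3 from −0.0108 to 0.14 and MET from −0.11 to 0.0134. In the averaged effect, EPHA2 ran from −0.17 to 0.18, ERBB2 from −0.15 to 0.16 and IGF1R from −0.00668 to 0.0240. In non-additivity, ERBB2 ran from −0.28 to 0.32, ERBB3 from −0.16 to 0.17, IGF1R from −0.0115 to 0.0708 and MET from −0.0807 to 0.0439.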
